A study of Mus musculus with 1920 samples.

Results

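The 40 genes described here encode parts of the machinery by which a cell copies its DNA and then divides. They were listed by name for their known roles, with earlier results of these data known: 13 act in DNA replication (Mcm2, Mcm3, Mcm4, Mcm5, Mcm6, Mcm7, Pcna, Rrm1, Rrm2, Tyms, Cdt1, Cdc6 and Gins2), 24 act mainly in G2 and mitosis (Mki67, Top2a, Cenpe, Ccnb2, Cenpa, Cdca8, Ccna2, Ube2c, Pimreg, Racgap1, Ccnb1, Cdk1, Birc5, Aurka, Aurkb, Plk1, Bub1, Bub1b, Cdc20, Tpx2, Kif11, Kif20a, Nusap1 and Prc1), and 3 code for chromatin or microtubule proteins (Stmn1, Hmgb2 and H2afz). All 40 were found among the 48709 gene entries of the count table. The samples are microglia, macrophages that live in brain and spinal cord, taken from CD1 mice at 16 weeks of age. Each well received 1 sorted cell, and libraries were made by Smart-seq2, a full-length cDNA method that counts reads without molecular identifiers. There were 10 groups of 4 mice: 6 untreated regions (corpus callosum, cortex, hippocampus, facial nucleus, spinal cord and cerebellum), facial nucleus 3 and 14 days after axotomy of the facial nerve, and corpus callosum in the demyelination and the remyelination stage of the cuprizone model. For the axotomy wells the tissue label names the facial nerve and the source label the facial nucleus. The source label was followed. No label gives a transgene or a deletion in any group, and per the series' design text 1 set of mice gave all untreated regions. How the sorting gates were set is not given in the sources used here.

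A dividing cell first licenses its replication origins, loads the Mcm helicase on them and copies its DNA in S phase, with Pcna as the sliding clamp of the polymerases and with nucleotides made by ribonucleotide reductase (Rrm1, Rrm2) and thymidylate synthase (Tyms). It then passes through G2 into mitosis, where cyclins A and B (Ccna2, Ccnb1, Ccnb2) drive the kinase Cdk1, the Aurora and Polo kinases build the spindle, and Cdc20 and Ube2c direct the anaphase-promoting complex that ends mitosis. Replication genes are known as targets of E2F factors at the G1 to S transition, while genes of G2 and mitosis are known as targets of the DREAM and MuvB complexes and of NF-Y. Microglia renew slowly in the healthy brain and are known to proliferate in the facial nucleus after its nerve is severed and in demyelinated corpus callosum.

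The 2 kinds of gene differ in their promoters, which the list of names did not draw on. Of the 40 genes, 32 had an entry in a RefSeq table of promoters (mouse build GRCm38.p6, 250 bases before to 50 after the start of the gene); Mcm4, Gins2, Ccna2, Pimreg, Aurkb, Tpx2, Kif20a and Stmn1 were not matched. Both strands were searched for the words of the cell cycle homology region, called CHR, which were TTTGAA and also TTTAAA, a word that reads the same on both strands. They were searched for CCAAT, the word of the NF-Y box. The 4 E2F words were TTCCCGC in the first place, then TTCGCGC in turn, besides these TTGCCGC and as the last form TTGGCGC, and they can overlap each other on opposite strands. The CHR word was in 17 of 19 mitosis promoters (89.5%), in 3 of 11 replication promoters (27.3%) and in 27.7% of all 27025 promoters of the same length. E2F words had the opposite pattern, with 8 of 11 replication promoters (72.7%), 3 of 19 mitosis promoters (15.8%) and 9.71% of all. CCAAT was frequent in both kinds, in 17 of 19 mitosis promoters and 8 of 11 replication promoters against 37.9% of all, and CHR and CCAAT stood together in 84.2%, 27.3% and 10.8% of mitosis, replication and all promoters. These are matches of letters, and no binding was measured.

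**Figure D1:**
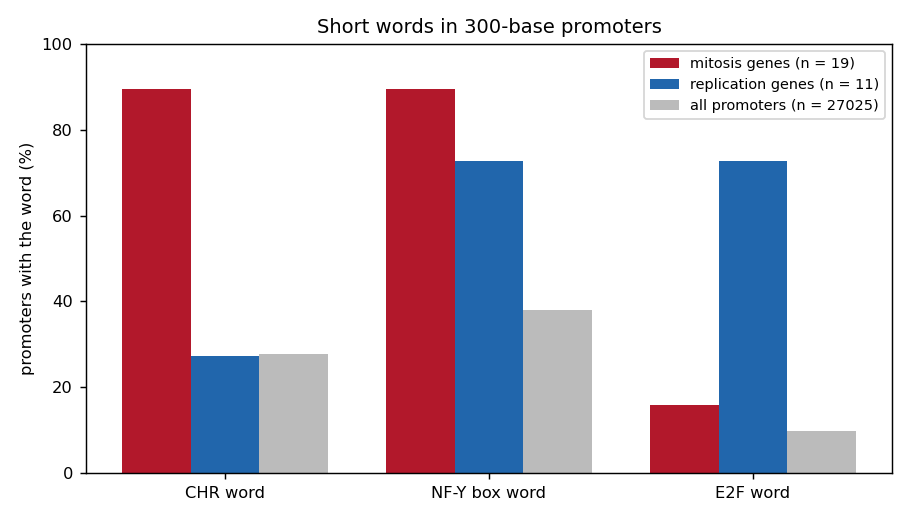
Share of promoters (y axis, %) that hold each kind of short word (x axis; the NF-Y box word is CCAAT), for 19 mitosis genes, 11 replication genes and all 27025 promoters. The CHR word is in 89.5% of mitosis promoters and 27.3% of replication promoters, and E2F words are in 15.8% and 72.7%.

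The promoters of 3 mitosis genes and 3 replication genes are shown to make this difference visible; they are the genes of each kind with the smallest p at day 3 after axotomy that had a promoter entry. Each runs from 250 bases before to 24 bases after the RefSeq start, 5′ to 3′ on the strand of the gene, with CHR, CCAAT and E2F words of either strand in capitals. They lie at chr2:164769679-164769952 (Ube2c, plus strand), chr3:135212313-135212586 (Cenpe, plus), chr9:70421531-70421804 (Ccnb2, minus), chr7:102441445-102441718 (Rrm1, plus), chr1:128359682-128359955 (Mcm6, minus) and chr12:24708004-24708277 (Rrm2, plus).
Ube2c: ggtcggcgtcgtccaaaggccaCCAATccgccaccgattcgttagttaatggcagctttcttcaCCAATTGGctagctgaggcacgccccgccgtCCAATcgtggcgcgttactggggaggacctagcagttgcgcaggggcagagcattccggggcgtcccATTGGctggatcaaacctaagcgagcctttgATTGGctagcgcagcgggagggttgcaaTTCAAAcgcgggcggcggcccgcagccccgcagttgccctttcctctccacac
Cenpe: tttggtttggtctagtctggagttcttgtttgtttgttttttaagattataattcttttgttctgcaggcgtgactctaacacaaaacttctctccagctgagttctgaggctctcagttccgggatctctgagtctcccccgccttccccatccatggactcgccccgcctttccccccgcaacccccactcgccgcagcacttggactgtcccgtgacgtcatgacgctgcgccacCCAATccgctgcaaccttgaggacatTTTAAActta
Ccnb2: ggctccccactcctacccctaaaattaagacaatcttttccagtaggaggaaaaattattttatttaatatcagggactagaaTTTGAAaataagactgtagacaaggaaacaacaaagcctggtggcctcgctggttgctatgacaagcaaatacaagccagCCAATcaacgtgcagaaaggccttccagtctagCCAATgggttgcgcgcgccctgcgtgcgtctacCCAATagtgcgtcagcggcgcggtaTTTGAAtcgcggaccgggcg
Rrm1: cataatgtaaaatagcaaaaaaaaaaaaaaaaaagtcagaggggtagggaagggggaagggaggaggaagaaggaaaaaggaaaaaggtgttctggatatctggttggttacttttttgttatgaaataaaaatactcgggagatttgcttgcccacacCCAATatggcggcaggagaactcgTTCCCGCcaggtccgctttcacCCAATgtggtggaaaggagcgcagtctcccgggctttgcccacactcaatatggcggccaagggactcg
Mcm6: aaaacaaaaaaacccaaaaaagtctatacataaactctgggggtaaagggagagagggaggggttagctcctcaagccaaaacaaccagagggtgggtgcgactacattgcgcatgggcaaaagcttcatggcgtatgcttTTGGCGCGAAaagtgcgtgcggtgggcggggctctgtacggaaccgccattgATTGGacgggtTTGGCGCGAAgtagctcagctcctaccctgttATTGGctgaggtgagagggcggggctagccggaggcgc
Rrm2: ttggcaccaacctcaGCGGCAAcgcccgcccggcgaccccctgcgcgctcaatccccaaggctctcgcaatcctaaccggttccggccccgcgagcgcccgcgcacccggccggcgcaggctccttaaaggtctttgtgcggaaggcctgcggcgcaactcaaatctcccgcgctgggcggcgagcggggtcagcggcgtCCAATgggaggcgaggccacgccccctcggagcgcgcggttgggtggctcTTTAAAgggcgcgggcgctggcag
None of the 3 mitosis promoters had an E2F word. In Ube2c the CHR word begins at position -29 from the start, in Cenpe at 15 and in Ccnb2 at -167 and 5, each with at least 1 CCAAT word upstream of the copy nearest the start. Rrm1 and Mcm6 had E2F words and no CHR word. In Mcm6 2 pairs of E2F words overlap on opposite strands, and 1 further word lies past the stretch shown. Rrm2 had a word of each kind, as did Cdk1, Ccnb1 and Mki67 among the mitosis genes and Mcm5 among the replication genes.

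Of 1900 wells labelled as cells, 1644 were kept, between 129 and 181 per group, and the summed counts of a mouse and group ranged from 5298853 to 19964472. Each plate of 384 wells held 2 groups. The axotomy days shared a plate, as did the cuprizone stages. An injured group and its untreated region therefore always lie on different plates, and plate and injury cannot be told apart in those comparisons. Untreated regions lay 2 to a plate, cortex with hippocampus and cerebellum with facial nucleus. Between regions of different plates, region and plate cannot be told apart either. Median mitochondrial share was 3.09% of counts at day 3 and 1.06% in untreated facial nucleus, and remyelination cells had the lowest median number of genes detected (1517). The 12 microglia markers were read at day 3 and in demyelination, and every kept cell of those groups had at least 1 of them. In 20 wells labelled negative, the replication genes had 2 counts and the mitosis genes 8 of 17779 gene counts. In summed counts, fewer cells with a transcript and less transcript per cell cannot be told apart, which is why the cells are described after the sums.

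Summed over the 24 mitosis genes, the level at day 3 after axotomy was 1379, 2098, 2733 and 2168 CPM (read counts relative to the library total, scaled between libraries by TMM) in mice 1 to 4. In untreated facial nucleus it was 323, 434, 45.2 and 90.4 CPM, and at day 14 it was 197, 120, 142 and 164 CPM. Every day 3 mouse therefore stood above every mouse of the other 2 groups. Demyelination came second, with 878, 1852, 373 and 717 CPM (955 ± 634, SD, n = 4), and overlapped with untreated corpus callosum, which had 553, 104, 288 and 676 CPM. Remyelination had 25.1, 17.2, 91.3 and 381 CPM, with mouse 4 far above the others. The lowest means were in hippocampus (56.5 ± 23.6 CPM), cerebellum (82.8 ± 35.1) and cortex (101 ± 57.5), which overlapped each other, and spinal cord had 196 ± 116 CPM (SD, n = 4 each).

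The replication genes followed another order. Their summed level was highest in demyelination, with 597, 464, 750 and 856 CPM (667 ± 172, SD, n = 4), where all 4 mice stood above the 410, 152, 307 and 423 CPM of corpus callosum. At day 3 it was 399, 371, 772 and 389 CPM against 214, 403, 193 and 209 CPM in facial nucleus, so that the groups overlapped through mouse 2 of the untreated group. At day 14 it was 197 ± 41.5 CPM and in remyelination 322 ± 136 CPM. Among untreated regions cortex had the highest mean (386 ± 203 CPM), with 636 CPM in mouse 3 and 196 CPM in mouse 4, and hippocampus the lowest, at 218 ± 45.6 CPM.

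**Figure D2:**
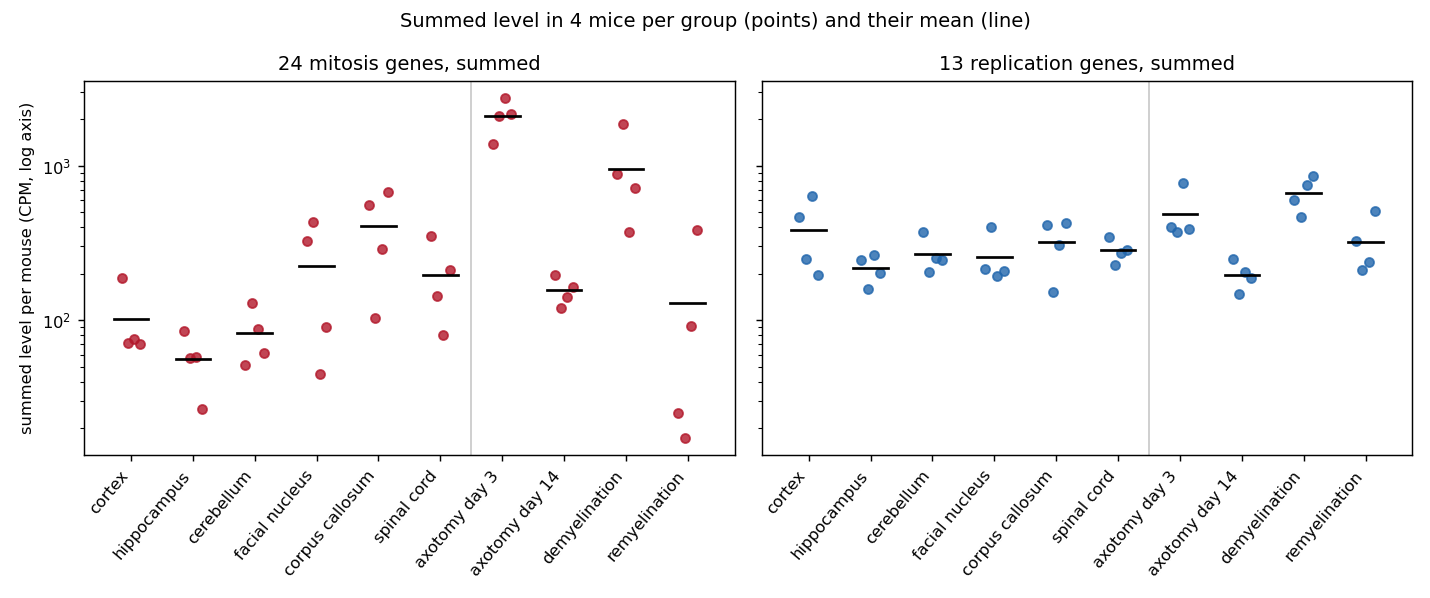
Summed level per mouse (y axis, CPM on a log axis) of the 24 mitosis genes (left) and the 13 replication genes (right) in the 10 groups; points are 4 mice, lines their mean, and the vertical line divides untreated from injured groups. For mitosis genes the 4 day 3 mice lie between 1379 and 2733 CPM, above all mice of facial nucleus and day 14; for replication genes the groups lie closer together, with demyelination highest.

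The balance between the 2 kinds of gene set the day 3 mice apart from those of every group but demyelination, whose highest mouse lay among them. The ratio of summed mitosis to summed replication level was 4.55 ± 1.22 at day 3 (SD, n = 4; lowest mouse 3.45), 0.81 ± 0.59 in facial nucleus and 0.79 ± 0.08 at day 14. In demyelination it was 1.70 ± 1.58, from 0.50 to 3.99, and in corpus callosum 1.14 ± 0.41. It was 0.32 ± 0.32 in remyelination, and its means in cortex, hippocampus, cerebellum and spinal cord ran from 0.26 to 0.67. Levels per kilobase were taken over all annotated exons of a gene, whichever transcript was expressed, so they compare genes only roughly. By this measure the median gene at day 3 had 17.1 CPM per kb among mitosis genes and 8.87 among replication genes. In facial nucleus the order was the reverse, with 1.64 and 4.73. The highest levels at day 3 were those of Ccnb2 (58.1 CPM per kb), Cdc20 (55.5), Ube2c (45.6) and Aurka (42.6), all mitosis genes.

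Axotomy at day 3 against untreated facial nucleus asks how the cycle genes respond early after nerve injury. Pimreg, a mitotic regulator that interacts with the clathrin assembly protein CALM (chr11:72042032-72047370, GRCm38 as in the files), had 63.0, 78.2, 152 and 116 CPM at day 3 and no count in any of the 4 facial nucleus mice. With a floor of 3 counts over the untreated group, the ratio of pooled counts relative to library totals was 1215. Reads are counted without molecular identifiers, so this ratio is not a lower bound on the change in transcripts. A count of 0 in 161 facial nucleus cells allows a share of cells of up to 1.86%. The edgeR quasi-likelihood test gave an adjusted p of 0.00567 (Benjamini-Hochberg over 19319 genes, n = 4 and 4). Ccna2, cyclin A2, which acts in S phase and at entry to mitosis (chr3:36564865-36572150), had 127, 148, 96.9 and 2.74 CPM at day 3 and 0.781, 0.184, 0.101 and 0.0955 CPM untreated. The groups did not overlap, although day 3 mouse 4 was far below the other 3 mice; the log2 fold change was 8.29 ± 1.56 (SE) with an adjusted p of 0.0337 in edgeR. These were the 2 of 40 members called in this comparison, where 0.145% of all genes tested were called and 0.14% were called higher.

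The call for Pimreg held in edgeR when any of the 8 mice was left out (adjusted p from 0.00718 to 0.0175), and that for Ccna2 was lost on leaving out any one of 7 mice (edgeR adjusted p from 0.0586 to 0.129), the exception being day 3 mouse 4 (0.00631). Without facial nucleus mouse 2, Cdk1 and Cenpe were called beside Pimreg (0.102% of all genes). With all 10 groups in one fit neither passed (edgeR adjusted p 0.131 and 0.357), and DESeq2 called 10 members, all mitosis genes, and 2.53% of all genes to which it gave an adjusted p. In simulated data of this design, edgeR recovered 43% of genes changed 8-fold and 1% of those changed 2-fold. Of the genes left unchanged, 5 were called. Only genes above a minimum mean level were changed, each starting from that mean, so genes near 0 in untreated mice were not covered.

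Ube2c, Cenpe and Ccnb2 came next and did not pass. Ube2c, the ubiquitin-conjugating enzyme of the anaphase-promoting complex whose promoter is shown above, had 58.4, 155, 179 and 81.3 CPM at day 3 and 5.27, 0.552, 1.82 and 0 CPM untreated (log2 fold change 5.95 ± 1.27, edgeR adjusted p 0.0849). Cenpe, a kinetochore motor, had 82.5, 36.0, 289 and 97.9 CPM against 3.12, 9.29, 1.22 and 0.0955 (5.21 ± 1.12, edgeR adjusted p 0.0926). In Ccnb2, cyclin B2, the values were 41.8, 118, 72.2 and 126 CPM against 2.63, 0.552, 1.72 and 4.97 (5.17 ± 1.16, edgeR adjusted p 0.123). In all 3 genes every day 3 mouse stood above every untreated mouse. This was so for 14 of the 24 mitosis genes, for none of the 13 replication genes and for Stmn1, against 3.1% of all genes tested.

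Mki67 (chr7:135689784-135716361), the gene of the Ki-67 protein used to stain cycling cells, overlapped between the groups. It had 142, 184, 173 and 55.2 CPM at day 3 and 86.4, 103, 1.32 and 0.0955 CPM untreated, so that the lowest day 3 mouse fell between the untreated mice. Top2a (chr11:98992943-99024189), the topoisomerase that untangles chromosomes, had 79.3, 163, 319 and 59.1 CPM against 13.2, 41.9, 11.4 and 5.73, without overlap. Over the list, 24 of 24 mitosis genes had a positive log2 fold change, with a median of 3.74. As the log2 ratio of pooled counts, with untreated Pimreg set at the floor of 3 counts, the median was 3.47. Of the 24 genes, 19 had an unadjusted edgeR p under 0.05, as had 8.33% of all genes. Among replication genes 12 of 13 were positive, with a median of 0.44 and no unadjusted p under 0.05, and over all genes tested the median was 0.04.

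Single replication genes overlapped between the groups. Pcna (chr2:132249162-132253314) had 47.9, 10.6, 35.5 and 10.5 CPM at day 3 against 15.7, 31.2, 14.1 and 22.9, and all untreated mice lay within the range of the day 3 mice (0.34 ± 0.79). Mcm5 (chr8:75109569-75128439), a subunit of the replicative helicase, had 36.9, 47.2, 49.98 and 22.8 CPM against 7.81, 47.3, 3.04 and 0.573, where untreated mouse 2 lay among the day 3 mice. The 3 replication genes with the smallest p were Rrm1 (1.36 ± 0.69, edgeR adjusted p 0.657), Mcm6 (1.62 ± 0.89, edgeR adjusted p 0.737) and Gins2 (2.94 ± 2.02, edgeR adjusted p 0.884). Rrm2, the small subunit of ribonucleotide reductase, had 3.25, 56.6, 197 and 0.110 CPM at day 3 and 19.5, 35.9, 0 and 0 CPM untreated, so that the mice of both groups were mixed. Cdt1, which licenses origins in G1, was the 1 replication gene with a lower mean at day 3, at 5.86 ± 5.49 against 14.9 ± 22.3 CPM (SD, n = 4 each).

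**Figure D3:**
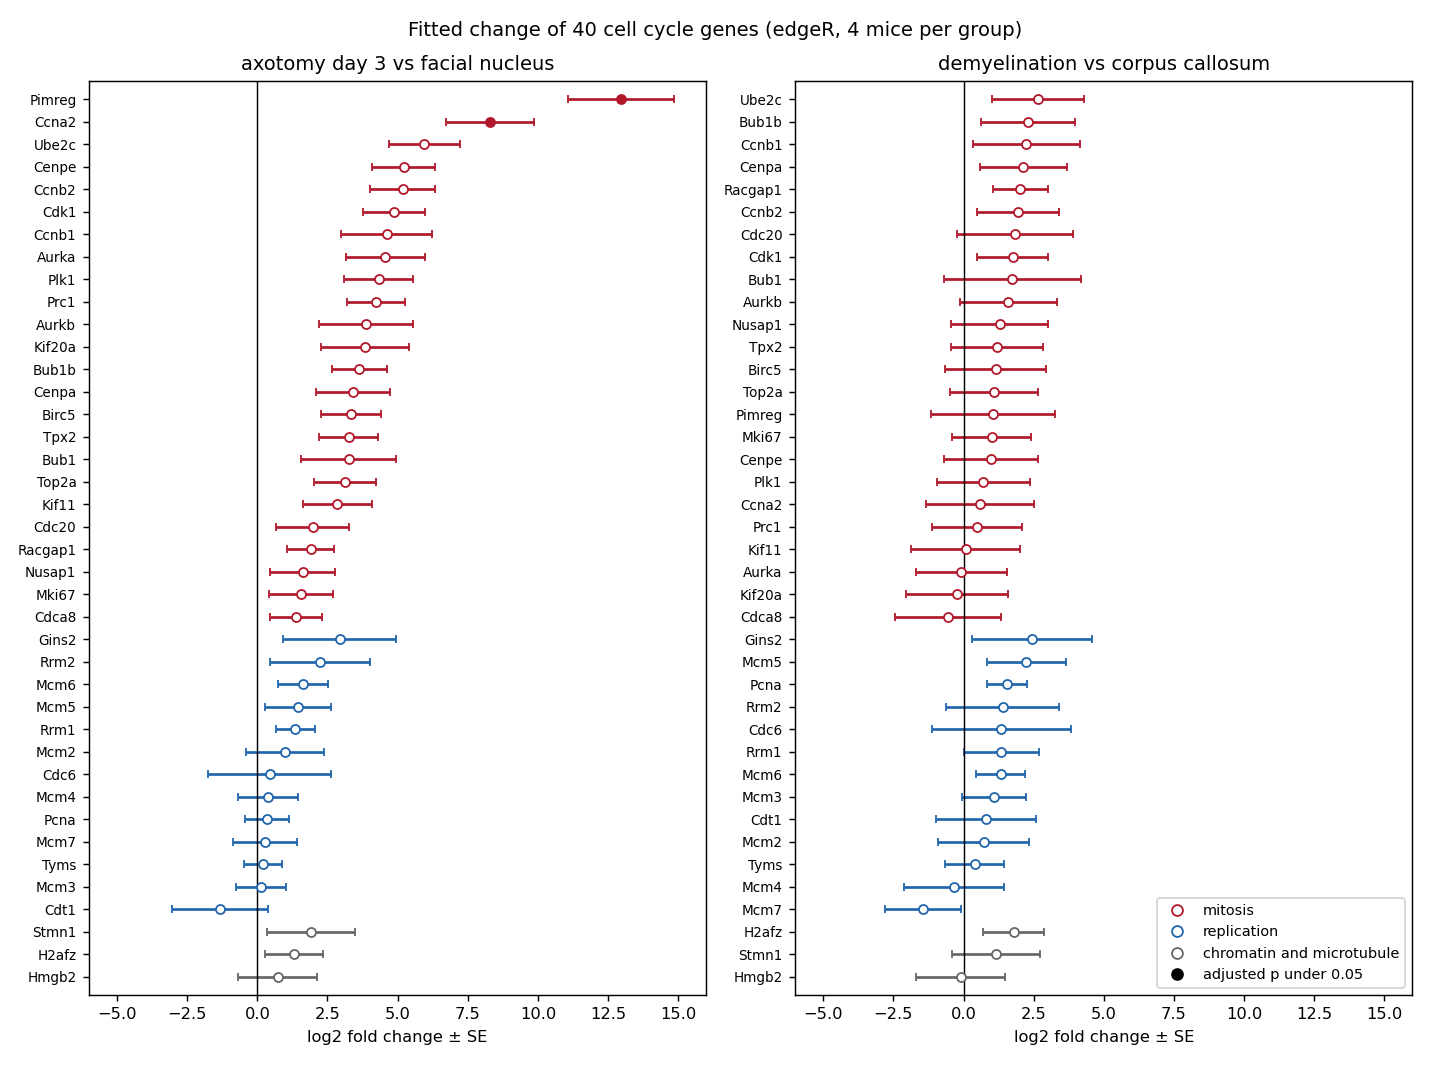
Fitted log2 fold change ± SE (x axis) of the 40 genes (y axis) at day 3 after axotomy against facial nucleus (left) and in demyelination against corpus callosum (right), 4 mice per group; filled points have an edgeR adjusted p under 0.05. At day 3 all 24 mitosis genes lie to the right of 0, with Pimreg and Ccna2 called, while replication genes lie nearer 0; in demyelination both kinds lie slightly to the right and none is called.

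At day 14 the mitosis genes had no common direction against untreated facial nucleus. Against facial nucleus 12 of 24 were positive and 12 negative, with a median log2 fold change of -0.02, and edgeR called no member and none of all genes tested (0%). At an unadjusted p under 0.05 stood 5 mitosis genes and 5.64% of all genes (1090). By DESeq2 1 member, Cdc20, was called (1.97% of all genes). The 5 members with the smallest p were Cdc20 (5 counts at day 14 against 1096), Pimreg (27 against 0), Ccna2 (100 against 12), Cdk1 (487 against 123) and Ccnb1 (7 against 94), and in all 5 the mice of the groups overlapped.

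Day 14 and day 3 lay on the same plate, and their difference ran in 1 direction for all 24 mitosis genes, with a median log2 fold change of -3.73 against 0.10 over all genes. In 19 of the 24 every day 14 mouse was below every day 3 mouse, as were Rrm1 among the replication genes and Stmn1, against 2.32% of all genes tested, and 22 of 24 had an unadjusted p under 0.05 (6.6% of all genes). edgeR called no member, with 0.0259% of all genes called, and DESeq2 called 11 members and 1.73% of all genes. Ube2c had 1.77, 0, 0.223 and 0.163 CPM at day 14 (log2 fold change -7.83 ± 1.40, edgeR adjusted p 0.0614). Cdc20, the activator of the anaphase-promoting complex, had 76.1, 195, 106 and 37.4 CPM at day 3 and 0.148, 0.120, 0.111 and 0.163 CPM at day 14 (-9.45 ± 1.88, edgeR adjusted p 0.0829). The replication genes had a median of -1.38, with 12 of 13 negative.

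Each kept cell was thinned to 20000 gene counts, so that depth was equal, and a gene was taken as read with 1 or more thinned counts. A cell with 4 or more of the 24 mitosis genes read was called mitosis-high, and one with 3 or more of the 13 replication genes read replication-high. These are ranges of a count and not cell types: 6 day 3 cells had 3 mitosis genes read and 5 had exactly 4, while in demyelination no cell had 3 or 4. Because the members define the classes, their levels in them are a description and were given no test.

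Mitosis-high cells made up 25 of 168 cells at day 3, with 9.30%, 15.6%, 20.9% and 13.5% in mice 1 to 4 (14.8% ± 4.83, SD, n = 4). In untreated facial nucleus they were 5 of 161, with 0%, 6.82%, 2.70% and 2.86%, below every day 3 mouse. With a limit of 2 genes the means were 28.6% at day 3, 24.1% at day 14 and 13.8% in facial nucleus, and the mice overlapped, with 18.6% in day 3 mouse 1, 32.5% in day 14 mouse 1 and 22.2% in facial nucleus mouse 1. Without thinning the shares were 22.0% ± 2.86 and 4.33% ± 2.16. Day 14 had 3 of 171 cells. Demyelination had 12 of 161 (7.30% ± 2.71) and corpus callosum 7 of 173 (4.22% ± 5.61), of which 5 came from mouse 4, whose 12.5% lay above every demyelination mouse. This direction turned with a limit of 3 genes (7.30% against 7.78%) and of 2 genes (9.04% against 19.8%). Spinal cord had 2, cortex, cerebellum and remyelination 1 each, and hippocampus 0 of 154 cells, which allows a share of up to 1.95%.

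Replication-high cells were spread differently. Cortex had 14.9%, 8.70%, 23.3% and 5% in its 4 mice (13% ± 7.99), the highest mean at this limit, and 22 of its 23 replication-high cells were not mitosis-high. Of these 23 cells 13 had exactly 3 replication genes read. With a limit of 4 genes the mean was 5.63% in cortex, 6.62% in demyelination and 5.95% at day 3, with 5 genes 3.92%, 5.47% and 4.69%, and with 2 or more counts needed per gene 8.44%, 9.18% and 5.86%, so that cortex no longer had the highest mean. Cortex kept it with a limit of 2 genes (23.2%, next demyelination at 23.0%), without thinning (19.2%, next day 3 at 15.7%) and when thinned to 100000 counts (15.9%, next day 3 at 14.7%). At the limit of 3 genes demyelination had 9.72% ± 3.11, corpus callosum 8.57% ± 3.58 and day 3 8.46% ± 6.34, with overlapping mice. Facial nucleus had 3.76% ± 1.47, and cerebellum and remyelination had the lowest means, 2.20% ± 1.74 and 2.31% ± 3.06.

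**Figure D4:**
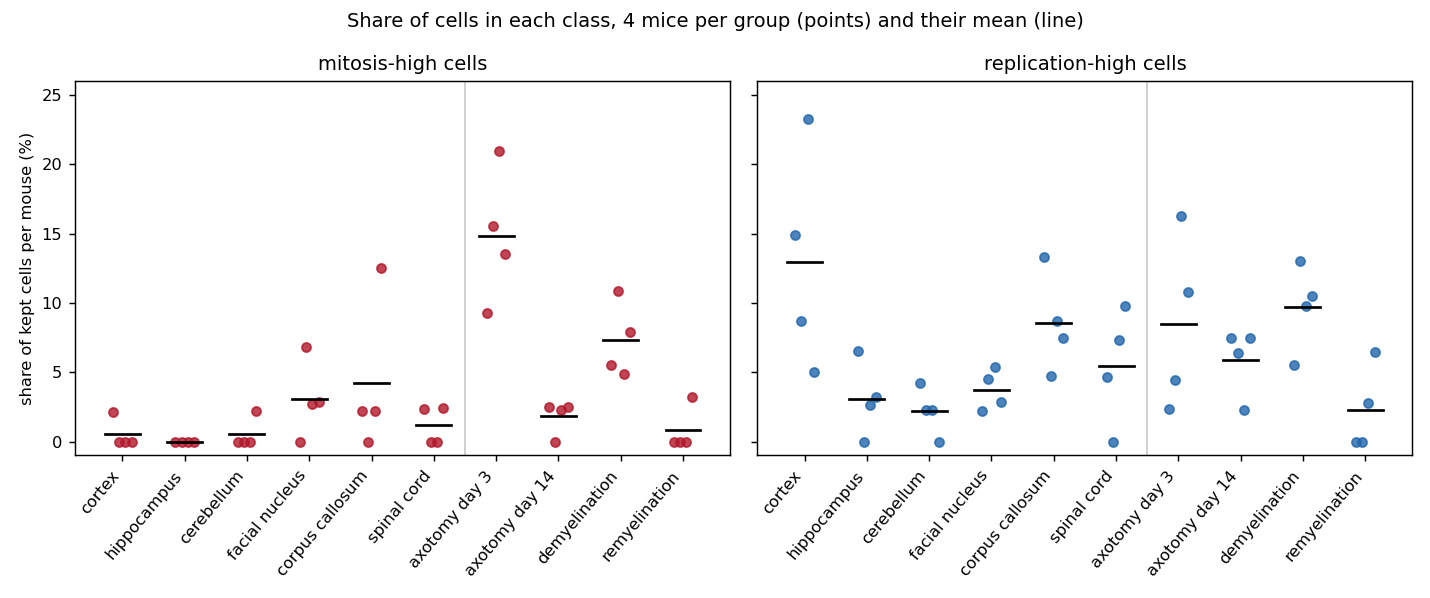
Share of kept cells per mouse (y axis, %) that were mitosis-high (left) or replication-high (right) in the 10 groups; points are 4 mice and lines their mean. The 4 day 3 mice lie between 9.30% and 20.9% for mitosis-high cells, above all facial nucleus and day 14 mice at the limit of 4 genes but not of 2; for replication-high cells the cortex mice spread from 5% to 23.3%, and its mean is highest at the limit of 3 genes but not of 4 or 5.

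At day 3 the 25 mitosis-high cells held 96.1% of all counts of the 24 mitosis genes, which the rule for the class favours, and 56.6% of the counts of the 13 replication genes, which the rule did not use. These cells were deeper, with a median of 327459 gene counts against 183957 in the other day 3 cells, and 1 cell held 18.9% of the replication counts; the part of depth in the share was not tested. In demyelination 12 cells held 89.6% and 32.2%. The 5 cells highest in mitosis counts at day 3 held at least 50% of the counts, and the single highest cell 14.1%. In facial nucleus the highest cell held 29.0% of the mitosis counts and 3 cells at least 50%.

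The 2 programmes overlapped in part of the cells. At day 3, 8 of 25 mitosis-high cells were also replication-high (32.0%, exact Clopper-Pearson 95% interval 14.9% to 53.5%), against 6 of 143 other cells (4.20%, 1.56% to 8.91%). In demyelination this was 7 of 12 (58.3%, 27.7% to 84.8%) against 9 of 149 (6.04%, 2.80% to 11.2%). The intervals cover counting of cells only. Summed replication level in mitosis-high and other cells was 1518 and 165 CPM in day 3 mouse 1, 1073 and 145 in mouse 2, 1955 and 392 in mouse 3 and 373 and 408 in mouse 4, so that 3 of 4 mice had the higher level in mitosis-high cells. In demyelination all 4 did, with 835 and 390, 1071 and 222, 2492 and 446, and 4072 and 310 CPM.

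Among the 13 replication genes at day 3, Rrm2 was read in 28% of mitosis-high and 0.699% of other cells. Rrm1 was read in 40% and 11.2%, Pcna in 32.0% and 9.09%, Mcm6 in 32.0% and 5.59% and Mcm5 in 24% and 3.5%. Mcm2 was read in 4.00% and 6.29%, the 1 replication gene with the lower share in mitosis-high cells. In demyelination Pcna was read in 41.7% of mitosis-high and 22.8% of other cells, Tyms in 58.3% and 6.04% and Rrm1 in 58.3% and 8.05%. For each of these genes most positive cells lay outside the class. Cells in and outside it were 5 and 34 for Pcna, 7 and 9 for Tyms and 7 and 12 for Rrm1.

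**Figure D5:**
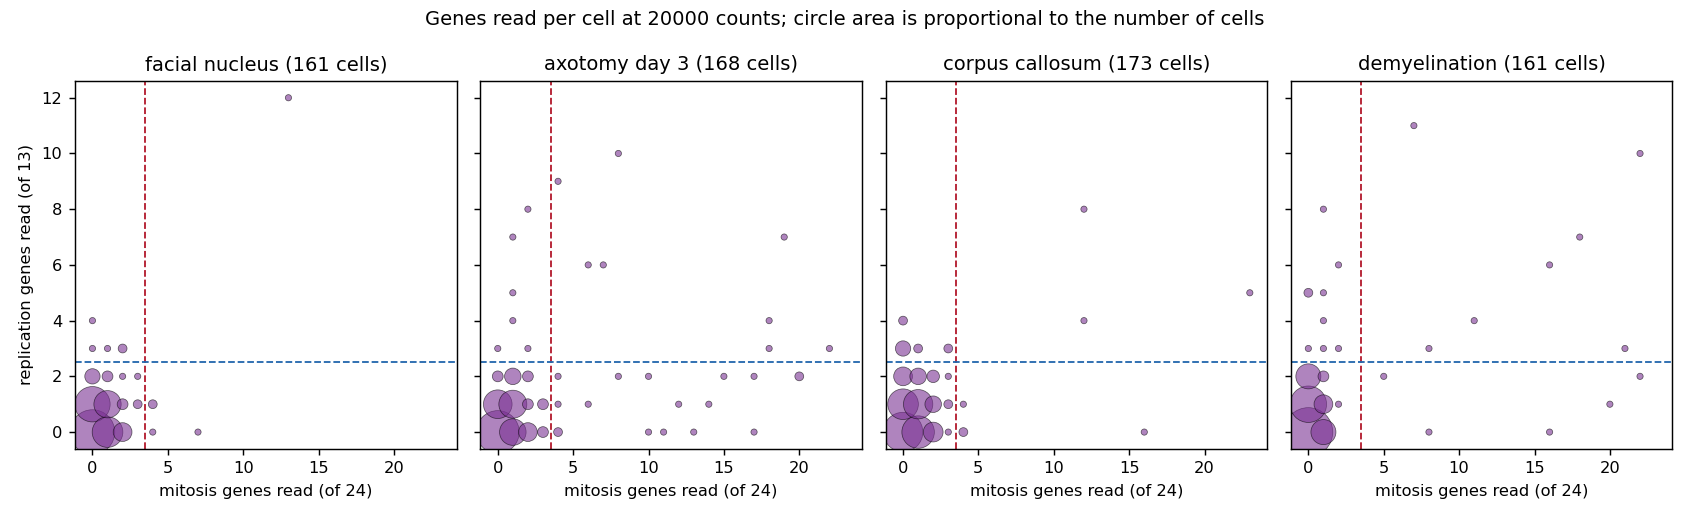
Number of replication genes read (y axis, of 13) against mitosis genes read (x axis, of 24) per cell at 20000 counts in 4 groups; circle area is proportional to the number of cells at that point, and dashed lines mark the limits of the classes. Day 3 and demyelination have cells with up to 22 mitosis genes read, some with and some without replication genes, and most cells of each group lie at the lower left.

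Over all groups, 57 cells were mitosis-high: 22 of them were replication-high as well and 35 were not, and another 83 cells were replication-high only. Mki67 was read in 20 of 22 cells high in both and in 19 of 35 high in mitosis alone, but in 2 of 83 high in replication alone. Aurkb (68.2% and 31.4%), Mki67 (90.9% and 54.3%), Top2a (81.8% and 48.6%) and Ccna2 (63.6% and 31.4%) had, of the 24 mitosis genes, the largest excess in cells high in both over those high in mitosis alone. Cells high in both had more mitosis genes read in all (median 12.5 against 8), and 21 of the 24 genes had such an excess. The classes also drew on the groups differently, with 8, 7 and 6 cells from day 3, demyelination and untreated regions against 17, 5 and 10. Cenpa (50% and 71.4%), the histone variant that marks centromeres, and Kif20a (27.3% and 45.7%), a motor of cytokinesis, leaned the other way. Among the cells high in replication, Rrm2 was read in 59.1% of those also high in mitosis and in 10.8% of those that were not, Tyms in 86.4% and 19.3% and Rrm1 in 86.4% and 30.1%. Mcm2 (22.7% and 39.8%) and Cdt1 (13.6% and 25.3%) had the lower share in cells high in both, and all other replication genes had the higher share there. The number of replication genes read per cell was not matched between these cells, and its part in the shares was not tested. Of the cells high in replication alone, 56 of 83 came from untreated regions, against 6 of 22 high in both. Median depth before thinning was 333293, 291801 and 293298 counts in the 3 classes and 244406 in the other 1504 cells.

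Other measures moved with the class. Mitosis-high cells had a median mitochondrial share of 4.79% against 2.67% in other cells at day 3 and of 4.14% against 1.52% in demyelination, and in demyelination they had a median of 3484 genes detected against 2096. At equal depth this was 2293 against 1309, while at day 3 it was 2110 against 2074. The part of these differences in the results was not tested. All 12 microglia markers were read in both kinds of cell in both groups, with a median sum of 698 and 816 thinned counts at day 3 and of 454 and 460 in demyelination. Any of 8 monocyte markers was read in 28% of mitosis-high and 24.5% of other cells at day 3, with 5 of the 8 at 0 in mitosis-high cells. In demyelination this was 91.7% and 45.0%, mainly from Fn1, read in 83.3% and 43.6%, and here too 5 of 8 were at 0 in mitosis-high cells; its part in the result was not tested. Of the other cell types' lists, any oligodendrocyte lineage marker was read in 58.3% of mitosis-high and 31.5% of other demyelination cells, any endothelial marker in 58.3% and 27.5%, and any astrocyte marker in 33.3% and 14.8%. At day 3 these 3 lists had the lower share in mitosis-high cells (20%, 24% and 32% against 27.3%, 34.3% and 37.1%), and the part of such reads in the results was not tested.

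Demyelination against corpus callosum asks the same question for loss of myelin. Replication and mitosis genes had similar medians, with log2 fold changes of 1.32 and 1.17 against -0.33 over all genes, 11 of 13 and 21 of 24 were positive, and edgeR called none of the 40 while it called 5.16% of all genes tested; 1 member, Pcna, had an unadjusted p under 0.05 (20.3% of all genes). H2afz was the 1 member called by DESeq2 (17.7% of all genes). Every demyelination mouse stood above every untreated mouse for 3 replication genes, 2 mitosis genes and H2afz, against 8.88% of all genes tested. Pcna had 76.8, 47.8, 50.6 and 101 CPM against 22.9, 13.2, 45.4 and 12.4 (1.55 ± 0.71, edgeR adjusted p 0.223), and Mcm5 had 101, 57.0, 161 and 49.9 CPM against 37.2, 7.40, 19 and 13.7 (2.23 ± 1.40, edgeR adjusted p 0.424). Racgap1 (chr15:99620496-99651656), a regulator of cytokinesis, had 74.4, 99.4, 33.7 and 52.7 CPM against 15.4, 4.09, 13.7 and 29.5 (2.01 ± 0.98, edgeR adjusted p 0.264). Ube2c had 69.7, 55.4, 19.8 and 31.6 CPM against 0.694, 0, 8.22 and 18.3 (2.64 ± 1.65, edgeR adjusted p 0.419). Mki67, at 61.5 ± 50.1 against 29.8 ± 31.3 CPM, and Top2a, at 84.2 ± 82.9 against 38.2 ± 36.0 CPM, overlapped between the groups (SD, n = 4 each).

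In remyelination, against corpus callosum, all 24 mitosis genes had a negative log2 fold change, with a median of -2.19 against -0.31 over all genes, and 5 of 13 replication genes were positive, with a median of -0.30. Racgap1 was the 1 member called, where 3.12% of all genes tested were called and 0.605% were called lower: it had 0.141, 0.249, 0.190 and 0.300 CPM, below every untreated mouse (-6.09 ± 1.20, edgeR adjusted p 0.00751). In 4 mitosis genes every remyelination mouse was below every untreated mouse (12.2% of all genes), and 8 had an unadjusted p under 0.05 (18.8% of all genes). That call held in edgeR without any one mouse (adjusted p from 0.00960 to 0.0291), but without remyelination mouse 4 edgeR called 5 members (Birc5, Cdca8, Mcm2, Mcm5 and Racgap1; 2.36% of all genes) and without mouse 3 it called 2 (Cenpe and Racgap1; 2.09% of all genes). DESeq2 called 8 members and 14.1% of all genes. Ccnb2, Ube2c, Plk1 and Kif11 followed, with edgeR adjusted p of 0.0663, 0.0726, 0.114 and 0.141. Pcna had 45.8, 56.1, 77.0 and 47.1 CPM, above every corpus callosum mouse (1.28 ± 0.70, edgeR adjusted p 0.366), which held for 1 replication gene of 13 and for 5.53% of all genes.

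Remyelination and demyelination cells lay on the same plate. All 24 mitosis genes were lower in remyelination, with a median log2 fold change of -3.79 against 0.03 over all genes, and in 7 every remyelination mouse was below every demyelination mouse, as for 2 replication genes, against 2.76% of all genes tested. Racgap1 again was the 1 member called (-8.10 ± 1.30, edgeR adjusted p 0.0263), where 0.0427% of all genes tested were called and 0.0285% were called lower. At an unadjusted p under 0.05 stood 10 mitosis genes and 14.1% of all genes. The call was lost on leaving out any one of the 8 mice (edgeR adjusted p from 0.0557 to 0.181), and without remyelination mouse 4 Mcm5 was called in its place (0.0497% of all genes). DESeq2 called 6 members and 4.24% of all genes. Ube2c had 0, 0, 0 and 0.200 CPM in remyelination (edgeR adjusted p 0.29) and Ccnb2 had 0, 0.125, 0 and 0.400 CPM (edgeR adjusted p 0.29), both below every demyelination mouse. Replication genes had a median of -0.75, with 11 of 13 negative, and Mcm5 at 0.141, 0.249, 0.286 and 36.0 CPM lay below every demyelination mouse while Pcna (-0.27 ± 0.69) overlapped.

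The difference between the effects of demyelination and of day 3 axotomy was tested itself. Facial nucleus and corpus callosum, the untreated groups in it, came from 1 set of mice per the series' design text. The test took their samples as independent. No member was called by edgeR, against 0.281% of all genes, while 4 of 24 mitosis genes and 0 of 13 replication genes had an unadjusted p under 0.05 (21.7% of all genes). By DESeq2 Ccna2 and Pimreg were called (10.9% of all genes). With the replicate number as a block, edgeR called 0 members and 0.241% of all genes. The smallest adjusted p in edgeR were those of Pimreg (-11.87 ± 3.11, 0.072), Ccna2 (-7.60 ± 2.5, 0.0907), Cenpe (-4.14 ± 1.89, 0.197), Aurka (-4.55 ± 2.13, 0.209) and Prc1 (-3.58 ± 1.82, 0.247). The median difference was -2.25 over mitosis genes, 0.10 over replication genes and -1.22 over all genes, so the mitosis genes are to be read against that shift.

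Among the 6 untreated regions the edgeR test of any difference called no member, where 0.1% of all genes were called; 6 mitosis genes and 0 replication genes had an unadjusted p under 0.05 (10.3% of all genes), and Racgap1 was the 1 member called by DESeq2 (1.16% of all genes). The smallest p were those of Pimreg, Cdk1, Bub1, Ccna2 and Mki67, with edgeR adjusted p from 0.403 to 0.454. Regions of different plates cannot be told apart from their plates in this test. Per the series' design text 1 set of mice gave all 6 regions, and the test took their samples as independent. With the replicate number as a block, edgeR called 0 members and 0.17% of all genes. Pcna was read in every region, from 15.2 ± 9.51 CPM in spinal cord to 29.4 ± 13.8 in cortex (SD, n = 4 each), and its mice overlapped between regions. Mcm3, a helicase subunit, had 29.6, 51.2, 151 and 14.7 CPM in cortex, with mouse 3 far above the others, and its mice overlapped with those of all other regions.

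Stmn1, which destabilises microtubules, Hmgb2, a chromatin protein, and H2afz, a histone H2A variant, have other uses outside division, and reads of such genes can be shared with near-identical copies, so their levels are uncertain. Their summed level was 36.6 ± 5.78 CPM at day 3, 15.5 ± 8.94 in facial nucleus, 40.2 ± 6.08 in demyelination, 29.9 ± 10.6 in remyelination and 16.5 ± 7.44 in corpus callosum (SD, n = 4 each), and the day 3 and demyelination mice stood above all mice of their untreated region. None was called by edgeR in any comparison. At day 3 Stmn1 was read in 11 of 25 mitosis-high cells and in 0 of 143 others at 20000 counts, and the mitosis-high cells held 93.8% of its counts before thinning. H2afz was read in 64.0% and 11.2%. In remyelination H2afz had 24.4 ± 9.60 CPM and in demyelination 24.9 ± 3.94 CPM (log2 fold change -0.01 ± 1.06).

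The other genes of the cell cycle were taken from lists of 41 replication genes, 46 mitosis genes, 9 G1 cyclins and kinases, 13 inhibitors and 13 transcription factors. At day 3 edgeR called 1 of the 46 other mitosis genes, Ect2, and none in the other 4 lists (0.145% of all genes tested). Ect2, the exchange factor that starts cytokinesis, had no count in facial nucleus and 55.6 ± 49.8 CPM at day 3 (SD, n = 4, edgeR adjusted p 0.00949). In these other lists 41 of 46 mitosis genes were positive with a median log2 fold change of 2.48. Of the other replication genes tested, 30 of 40 were positive with a median of 0.64. Over all genes tested 9942 of 19319 were positive. In demyelination 2 of 8 tested G1 genes were called by edgeR, where 5.16% of all genes were called: Cdk4, the kinase partner of D cyclins, was higher at 343 ± 29.3 against 115 ± 53.7 CPM (1.54 ± 0.37, adjusted p 0.0243), and Ccnd2, cyclin D2, was lower at 0.0191 ± 0.0382 against 55.3 ± 89.4 CPM (adjusted p 0.0281), where the untreated mice spread from 6.54 to 189 CPM. Ect2 was also the 1 gene of these lists called in the difference between the effects of demyelination and axotomy (-12.35 ± 2.62, edgeR adjusted p 0.0237). In that test 0.281% of all genes were called.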

How the data were processed

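Single microglia were sequenced by Smart-seq2, and the deposited table holds raw counts for each gene in each well, which the authors made with STAR 2.5.2b and featureCounts 1.5.1 on GRCm38, per the submitters' processing notes. Strand is not marked by this method, so antisense and overlapping genes cannot be told apart. Wells with at least 20000 gene counts, at least 500 genes, under 25% mitochondrial and under 50% spike-in counts were kept, and their counts were summed per mouse and group. The sums were tested with edgeR 4.0.16 (quasi-likelihood, TMM, filterByExpr, R 4.3.3), with Benjamini-Hochberg adjustment over all genes tested and a threshold of 0.05. One fit held untreated facial nucleus with the axotomy days, one corpus callosum with the cuprizone stages, one the 6 regions and one the difference of effects. DESeq2 1.42.0, other filters, scalings and sample sets, and leaving out each mouse were the alternatives. The edgeR script was tested on simulated data of the day 3 comparison with 17027 genes, of which 200 were changed. The members and gene lists were chosen with earlier results of these data known. The members named are those called, otherwise the 5 with the smallest p in a comparison, and always Mki67, Top2a, Pcna and Mcm5; others were named after their values were seen. Mice are replicates per the labels, and p-values measure the spread between them. Summed levels are CPM with TMM over all 40 sums. Reads carry no molecular identifiers, so intervals and limits cover counting error only.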

Additional observations from a re-analysis of the deposited data

Results flagged for a closer look

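Among 48 checks of groups of 4 mice, 8 had 1 mouse far from the other 3. Chance gives about 1 in 20 for normally distributed values, and whether the levels checked are so distributed was not tested. That rate does not hold for the 4 shares of cells among the 8, where 1 cell against 0 is enough. Facial nucleus mouse 2 had a summed replication level of 403 CPM (others 193 to 214 CPM), and day 3 mouse 3 had 772 CPM (others 371 to 399 CPM). Cortex mouse 1 had a summed mitosis level of 187 CPM (others 70.3 to 75.6 CPM). The share of mitosis-high cells was 2.13% in 1 cortex mouse, 2.17% in 1 cerebellum mouse and 3.23% in 1 remyelination mouse, with 0% in the others of each group, so that each of these values is 1 cell. At day 14 it was 0% in 1 mouse and 2.27% to 2.5% in the others. Ccna2 in facial nucleus mouse 1 was at 0.781 CPM (others 0.0955 to 0.184 CPM).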

How the results depend on the processing

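The counts of members called depended on the test. DESeq2 called 10 members at day 3 against facial nucleus (2 in edgeR), 1 at day 14 against facial nucleus (0), 11 at day 14 against day 3 (0), 1 in demyelination (0), 8 in remyelination against corpus callosum (1), 6 in remyelination against demyelination (1), 1 among the regions (0) and 2 for the difference of effects (0). It also called more of all genes, 2.53%, 1.97%, 1.73%, 17.7%, 14.1%, 4.24%, 1.16% and 10.9% in the same order, against 0.145%, 0%, 0.0259%, 5.16%, 3.12%, 0.0427%, 0.1% and 0.281% in edgeR. With no filter on low counts edgeR called 10, 1, 9, 2 and 4 members in day 3 and day 14 against facial nucleus, day 14 against day 3, and remyelination against corpus callosum and against demyelination, with 0.237%, 0.0412%, 0.214%, 1.35% and 0.33% of all genes called. With all 10 groups in one fit it called 0 at day 3 against facial nucleus (0.124% of all genes) and 2 in remyelination against demyelination (0.379%). With only the groups compared it called 1 at day 14 against day 3 (0.00614%), 0 in remyelination against demyelination (0.00982%) and 1 for the difference of effects (1.03%). Leaving out 1 mouse gave 1 to 3 members at day 3 against facial nucleus, 0 to 2 at day 14 against day 3, 1 to 5 in remyelination against corpus callosum and 0 to 1 against demyelination, with 0.0742% to 0.106%, 0% to 0.0923%, 1.68% to 2.36% and 0.0186% to 0.0497% of all genes called. The cause of these differences was not tested.

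With the replicate number as a block, 1 member was called at day 14 against day 3 (0.0104% of all genes) and 0 in remyelination against demyelination (0.0356%). Samples of the same number had correlations of deviations from -0.0307 to 0.0755 over the 3 fits, 0 of them over 0.1, and the numbers were not taken as pairs. In the 6 regions the mean correlation was 0.0268 for the same number and -0.00894 for other pairs. Such correlations cannot exclude that samples of the same number share a mouse.

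The excess of mitosis-high cells at day 3 over facial nucleus, 11.7 percentage points, was 17.7 without thinning and 9.70 to 13.6 without 1 mouse. For demyelination over corpus callosum it was 3.08 points, 1.67 to 5.83 without 1 mouse, -10.7 with a limit of 2 mitosis genes and -0.476 with 3. The excess of replication-high cells in demyelination, 1.15 points, was -0.228 without thinning, -4.17 when thinned to 100000 counts and -0.123 to 2.73 without 1 mouse (lowest without corpus callosum mouse 2). Single members were followed under the alternatives only if called in a comparison, or otherwise if among those with the smallest p there. Of these results, 499 kept direction and side of the threshold, 39 passed it only under an alternative, 19 lost it and 0 reversed. Members picked for their small p in the same mice can hardly reverse, so the 0 says nothing about the other members. In simulated sums with 4 mice per group, changes of 2-fold were rarely detectable (1% recovered). Single cells were not simulated.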
